A study of Sus scrofa with 5 samples.

Results

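C-fibre identity transcription factors are the DNA-binding proteins that set and keep the character of the thin, unmyelinated sensory neurons for pain, itch, temperature and gentle touch. The 10 genes described here, RUNX1, PRDM12, PRDM8, BCL11A, BCL11B, FOXP2, RORA, KLF5, CASZ1 and ZNF521, were taken from a fixed list and looked up by symbol in a table of 30477 genes, and all 10 were present with counts. The list was drawn up with levels in these nuclei already known, so the levels are given as a description and no test was run on them. The table came from dorsal root ganglia, the clusters of sensory neuron cell bodies beside the spinal cord, of 5 male Landrace pigs. All belonged to a single group with no stated treatment, and no ages are given in the sources used here. Nuclei from 80 mg of thoracic and lumbar ganglion per sample were isolated with more than 1 protocol, which varied in the detergent and in the step that enriched neurons. The counts covered 2189 nuclei and 17277376 unique molecular identifiers (UMIs, each marking 1 captured RNA molecule), with a median of 4565 UMIs per nucleus.

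Nociceptors and other C-fibre neurons arise from neural crest precursors, and in mice RUNX1 then directs many of them towards the nonpeptidergic fate, with its channels and receptors. PRDM12 acts earlier: it is required for nociceptors to form, and its loss in people causes congenital insensitivity to pain. The other genes encode zinc finger, forkhead and nuclear receptor proteins that switch sets of genes on or off in many neurons. Of these, BCL11A and BCL11B (also called CTIP1 and CTIP2) are related repressors and members of chromatin remodelling complexes, and ZNF521 binds the early B-cell factors. FOXP2 is a forkhead repressor, RORA an orphan nuclear receptor, KLF5 a Krüppel-like zinc finger factor and CASZ1 the vertebrate castor zinc finger factor. PRDM8 is a PR domain factor that works with a bHLH partner in mouse neurons.

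The genes lie apart in the pig genome, with positions here from the RefSeq annotation of Sscrofa11.1, the build the submitters name. RUNX1 lies on chromosome 13 from 198371835 to 198635648, BCL11A on chromosome 3 from 81195217 to 81296165 and BCL11B on chromosome 7 from 120205008 to 120295737. PRDM12 (270723880 to 270739468) and RORA (110719004 to 111482807) are both on chromosome 1, and CASZ1 (70876329 to 71029495) and ZNF521 (109833610 to 110122920) both on chromosome 6. PRDM8 lies on chromosome 8 from 137604805 to 137611389, KLF5 on chromosome 11 from 45370009 to 45386673 and FOXP2 on chromosome 18 from 31335102 to 31890523. The counts are per gene, so exons, introns and isoforms are not told apart.

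Nuclei were grouped by clustering without the 10 genes or other listed transcription factors, and each of 21 clusters joined the marker gene that stood out most in it. The 8 markers were the cold channel gene TRPM8, the itch cytokine receptor gene IL31RA, the neurturin receptor gene GFRA2, the peptide gene ADCYAP1, the receptor tyrosine kinase gene KIT, the neurotrophin receptor genes NTRK2 and NTRK3, and the calcium-binding protein gene PVALB. The groups held 516 nuclei for TRPM8, 194 for IL31RA, 217 for GFRA2, 584 for ADCYAP1, 127 for KIT, 178 for NTRK2, 168 for NTRK3 and 205 for PVALB. TRPM8, IL31RA, GFRA2 and ADCYAP1 were taken to mark C-fibre neurons and NTRK2, NTRK3 and PVALB to mark large myelinated ones. KIT was kept apart from both sides. Each marker was highest in its own group, which the grouping itself ensures. All 6 neuronal markers checked (RBFOX3, SNAP25, SYT1, PRPH, NEFH and SLC17A6) were among the rows, with summed levels per 1000000 UMIs of a group (CPM) from 1720.9 in the KIT to 8977.3 in the PVALB group. Of these markers, NEFH was at 2167.5, 589.1 and 6013.4 CPM in the NTRK2, NTRK3 and PVALB groups. The groups taken as C-fibre were at 546.8 to 999.7 CPM, so NEFH did not set the NTRK3 group apart from them. PRPH was at 440, 124.6 and 981.2 CPM in the NTRK2, NTRK3 and PVALB groups. In the groups taken as C-fibre it was at 349.5 to 1025.8 CPM, so PRPH did not set the PVALB or NTRK2 group apart from them. Groups are called by their marker, not by a cell type.

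Barcode endings from 1 to 6 separated 6 sets of nuclei that shared no barcode, and each set is called a library here. The labels do not say what the endings stand for. Nothing tied them to the 5 pigs, so the table is 1 pooled sample. Intervals are at 95% and hold counting error alone, without any variation among the pigs. Medians ran from 676 to 12038 UMIs per nucleus over the libraries. The median share of UMIs from the mitochondrial genome was high in library 3 (18.5%) and library 1 (4.08%) and low in libraries 5 (0.114%) and 6 (0.0605%). Library 2 held 13 nuclei and library 4 held 75. Most clusters came from library 1, from library 3, or from libraries 5 and 6 together. All levels are in CPM. Because nuclear RNA is rich in introns and these genes span from 6.58 kb (PRDM8) to 763.8 kb (RORA) in the RefSeq annotation of Sscrofa11.1, levels are compared between groups and never between genes. Fewer nuclei carrying a transcript and less transcript per nucleus are not separated by a CPM.

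Across the table, 8 of the 10 genes were at least 2-fold higher in the C-fibre marker groups than in the large-fibre marker groups. For comparison, 6.47% of the 13117 genes with at least 50 UMIs passed the same mark. None of the 10 was at least 2-fold lower, against 9.42% of all genes, and the median log2 ratio was 1.32 for the 10 and -0.07 for all genes. Since the list was proposed as a C-fibre list, this describes the choice and lends it no support. PRDM12 (5.5-fold, interval 4.4 to 6.95), RUNX1 (5.09-fold, 4.49 to 5.78), KLF5 (4.95-fold, 3.78 to 6.6) and BCL11A (4.02-fold, 3.09 to 5.3) had the largest ratios. RORA (2.72-fold, 2.57 to 2.89), FOXP2 (2.28-fold, 1.96 to 2.65), PRDM8 (2.2-fold, 1.27 to 4.1) and ZNF521 (2.12-fold, 1.92 to 2.33) were closer to the 2-fold mark. Leaving out a single library took 3 of these below it: PRDM8 and FOXP2 without library 3 (log2 ratios 0.98 each), PRDM8 without library 4 (0.92) and ZNF521 without library 1 (0.998).

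BCL11B and CASZ1 were the members short of it. BCL11B was 1.79-fold higher (1.12 to 2.97) on 107 UMIs against 22, and within libraries its log2 ratio ran from -0.47 in library 5 to 1.82 in library 4. After thinning every nucleus to 1000 UMIs it turned to -1.10, with BCL11B then seen in at most 6 nuclei of any group, too few to give a direction. CASZ1 stood at 33.2 CPM in the C-fibre and 40.7 CPM in the large-fibre marker groups, a ratio of 0.816 (0.681 to 0.98), and it was the lower side in 5 of 5 libraries, with log2 ratios from -1.16 to -0.15. The other 8 genes were higher in 5 of 5 libraries. RUNX1 varied least among them, with log2 ratios from 2.17 to 2.78.

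**Figure D1:**
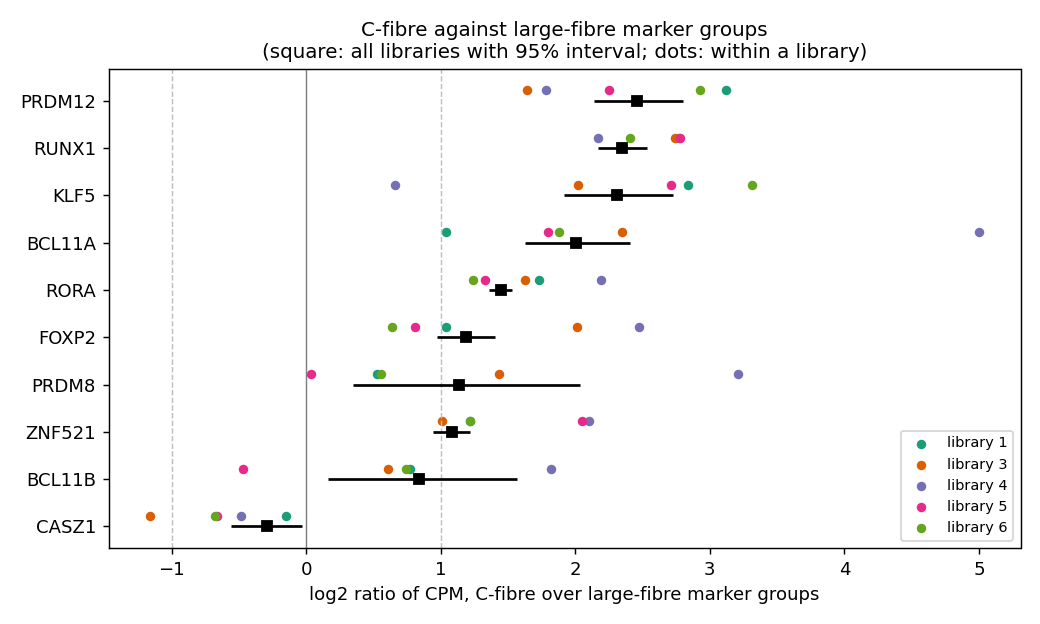
Log2 ratio of CPM in the C-fibre marker groups (TRPM8, IL31RA, GFRA2, ADCYAP1) over the large-fibre marker groups (NTRK2, NTRK3, PVALB) on the x axis for each of the 10 genes, with squares and bars for all libraries with 95% counting intervals and dots for single libraries (0.5 counts added on each side). Dashed lines mark 2-fold; 8 genes lie to the right of the upper line, BCL11B at 0.84 and CASZ1 at -0.29.

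The pooled ratio hides a division of the genes among groups, and this was the main pattern. In the TRPM8 group 4 members were at least 2-fold higher than in all other groups (PRDM8, FOXP2, RORA and ZNF521), where 2.61% of all genes passed. In the GFRA2 group there were 4 (RUNX1, KLF5, CASZ1 and ZNF521), where 3.31% of all genes passed. The ADCYAP1 group had 2 (BCL11A and BCL11B; all genes 2.99%), the KIT group 3 (BCL11A, BCL11B and CASZ1; all genes 4.84%) and the IL31RA group 1 (KLF5; all genes 3.56%). No member was 2-fold higher in the NTRK2, NTRK3 or PVALB group, where 6.48%, 13.1% and 17.7% of all genes passed. CASZ1 came closest, at 1.8-fold in the NTRK2 group (1.33 to 2.4). That group joined a cluster with 1888.7 CPM of NTRK2 and 116.5 CPM of CASZ1 to one with 606.1 CPM of NTRK2 and 39.5 CPM of CASZ1. The marker groups came from the same nuclei as the levels, so the counts are descriptions.

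**Figure D2:**
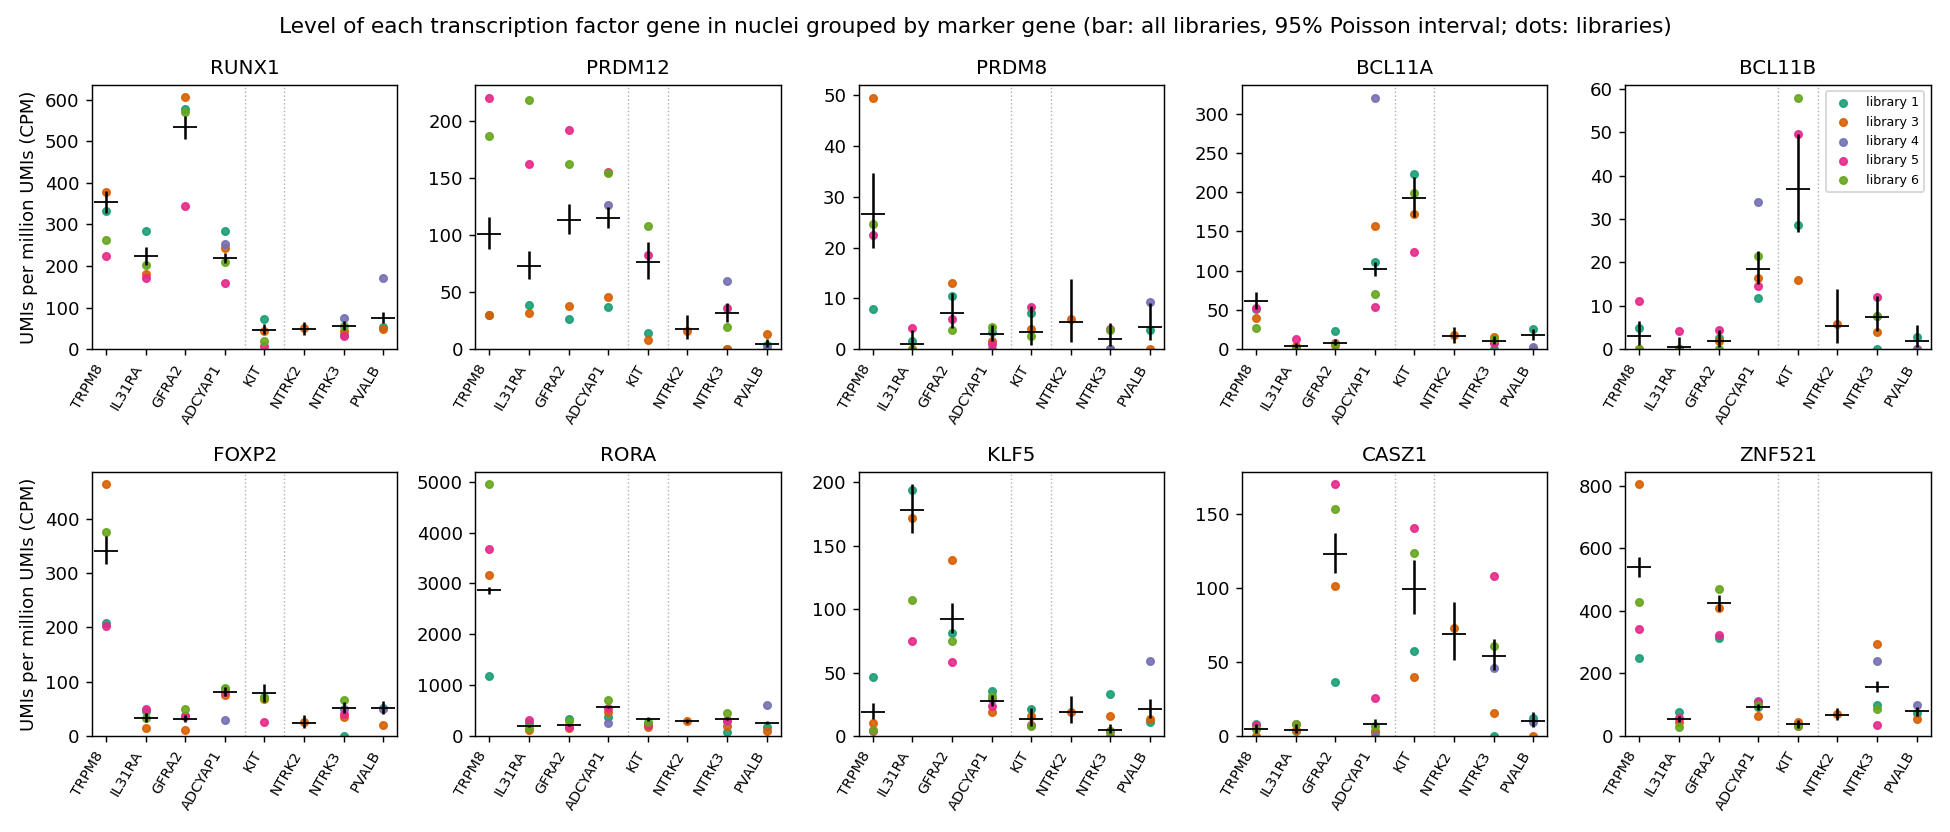
Level of each gene (y axis, CPM, with its own scale) in the 8 marker groups (x axis). Horizontal bars with vertical lines give the value over all libraries with its 95% Poisson interval, and dots give libraries with at least 10 nuclei in the group. RUNX1 is highest in the GFRA2 group, RORA and FOXP2 in the TRPM8 group, KLF5 in the IL31RA group and BCL11A and BCL11B in the KIT group.

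RUNX1 was high in all 4 C-fibre marker groups. It stood at 533 CPM in the GFRA2 group (505.7 to 561.3), 353 CPM in the TRPM8 group (327.7 to 379.9), 224 CPM in the IL31RA group (203.3 to 246.3) and 218.7 CPM in the ADCYAP1 group (206.1 to 231.9). The KIT, NTRK2, NTRK3 and PVALB groups had 47.1, 47.4, 56.3 and 75.5 CPM. The IL31RA and ADCYAP1 groups did not differ beyond their intervals, and neither did neighbours among the lower 4.

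In the GFRA2 group RUNX1 was at 578, 605.2, 343.1 and 569.2 CPM in libraries 1, 3, 5 and 6. In the TRPM8 group the same libraries gave 332.4, 376.7, 224.6 and 261.6 CPM. In the IL31RA group they gave 283.2, 181, 170.9 and 202 CPM. So the GFRA2 group was the highest within each of these 4 libraries, while the values of different libraries overlapped between groups. In the ADCYAP1 group the level was 283.8, 243, 252.5, 157.9 and 210.2 CPM in libraries 1, 3, 4, 5 and 6, next to that of the IL31RA group. The KIT group was at 71.8, 44.1, 8.28 and 20.2 CPM in libraries 1, 3, 5 and 6, the last values resting on 1 and 8 UMIs. Only library 4 showed RUNX1 above 100 CPM on the large-fibre side, at 170.1 CPM in its PVALB nuclei, against 52.2 and 47.7 CPM in libraries 1 and 3.

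PRDM12 was present in all 4 C-fibre marker groups and in the KIT group. Summed over libraries, it stood at 115.2 CPM in the ADCYAP1 (106.1 to 124.9), 113.5 CPM in the GFRA2 (101.1 to 127), 101.4 CPM in the TRPM8, 76.5 CPM in the KIT and 73.3 CPM in the IL31RA group. The NTRK3, NTRK2 and PVALB groups had 31.4, 17.6 and 4.44 CPM. The KIT nuclei were at 14.4, 8.01, 82.8 and 108.5 CPM in libraries 1, 3, 5 and 6, below each C-fibre marker group in the same library. The NTRK2 and PVALB groups held fewer than 10 nuclei each in libraries 5 and 6, where PRDM12 was higher, so their summed levels come mostly from other libraries. In library 3 the NTRK2 nuclei were at 16.1 CPM (8.04 to 28.8) and the KIT nuclei at 8.01 CPM (0.97 to 28.9). The 3 highest groups had overlapping intervals, and which of them led changed with the processing. In the NTRK3 group 26 of the 63 PRDM12 UMIs came from a single nucleus of 141475 UMIs in library 4.

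The level of PRDM12 depended more on the library than on the C-fibre marker group. In the ADCYAP1 group it was at 37.2 and 45.4 CPM in libraries 1 and 3 and at 155.6 and 154.4 CPM in libraries 5 and 6. In the TRPM8 group it was at 30.2 and 29.7 CPM against 220.9 and 187.5 CPM in the same libraries, and in the GFRA2 group at 26.2 and 37.5 CPM against 192.4 and 162.6 CPM. The 2 pairs of libraries did not overlap in these groups. The same held for the IL31RA group, with 39.1 and 31.7 against 162.5 and 218.5 CPM. The KIT group had 14.4 and 8.01 CPM, on 2 UMIs each, against 82.8 and 108.5 CPM.

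Summed over the pair, libraries 5 and 6 exceeded libraries 1 and 3 by 6.69-fold in the TRPM8 group (4.5 to 10.2), 5.35-fold in the IL31RA, 5.39-fold in the GFRA2 and 3.63-fold in the ADCYAP1 group (2.84 to 4.7). These pairs also differ in mitochondrial share, as given above, and nothing links them to pigs or protocols; the part of either in the difference was not tested. In the ADCYAP1 group 21.1% of the 9520 genes with at least 50 UMIs were at least 2-fold higher in libraries 5 and 6. Of the 8 members with at least 50 UMIs there, PRDM12 was the 1 past that mark. CASZ1 was at 2.84 CPM on 5 UMIs in libraries 1 and 3 and at 12 CPM on 38 UMIs in libraries 5 and 6, below that minimum.

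**Figure D3:**
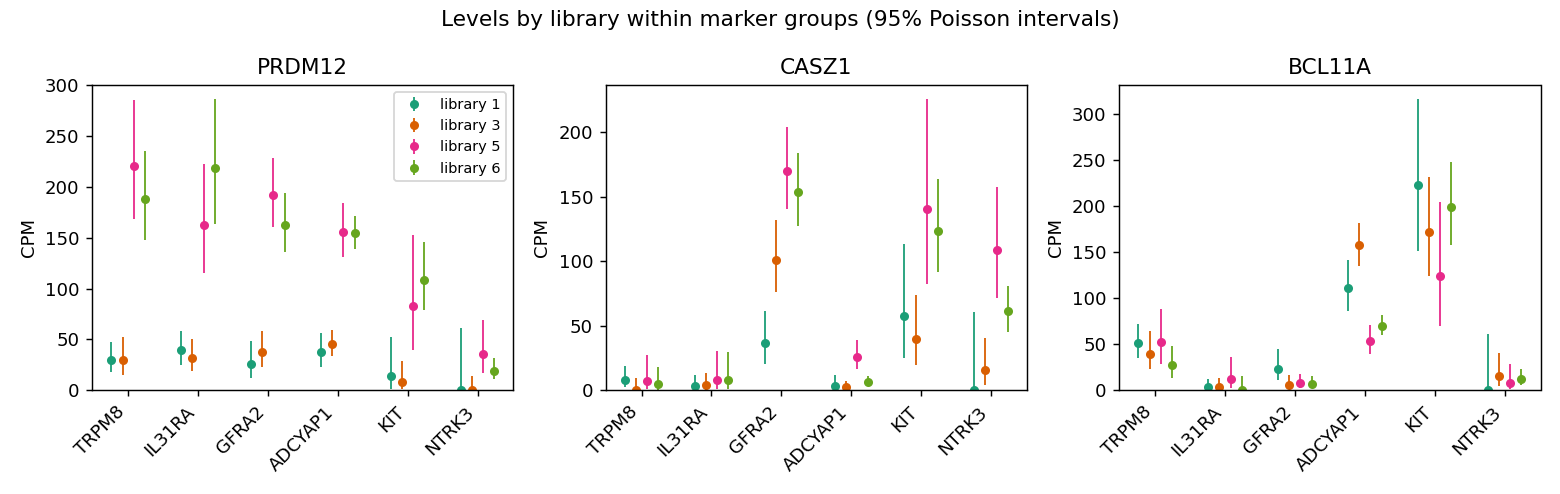
Levels of PRDM12, CASZ1 and BCL11A (y axes, CPM) within 6 marker groups (x axis) in libraries 1, 3, 5 and 6, with 95% Poisson intervals. PRDM12 lies below 50 CPM in libraries 1 and 3 and above 150 CPM in libraries 5 and 6 in each of the 4 C-fibre marker groups, while BCL11A in the ADCYAP1 group runs the other way.

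RORA and FOXP2 marked the TRPM8 group. RORA stood at 2862.8 CPM there (2789.7 to 2937.3), 7.88-fold above the other groups together (7.59 to 8.17), with the ADCYAP1 group next at 568.2 CPM and the other 6 groups between 186.3 and 340.9 CPM. Within the TRPM8 group it was at 1175.4, 3174.3, 3676.1 and 4955 CPM in libraries 1, 3, 5 and 6. Every one of these values lay above every value of a library with at least 10 nuclei in any other group, the highest of which was 713.4 CPM. FOXP2 stood at 341.2 CPM in the TRPM8 group (316.3 to 367.6), 6.04-fold above the rest, and at 208.4, 463.4, 202.1 and 375.1 CPM in the same libraries. The ADCYAP1 and KIT groups followed at 81.5 and 78.2 CPM. No library with at least 10 nuclei in any other group exceeded 88.2 CPM. The 5 KIT nuclei of library 4 fell short of that minimum. Without library 4 the KIT group was at 64 CPM, and its listed libraries reached at most 71.8 CPM.

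ZNF521 was shared by the TRPM8 and GFRA2 groups, at 538.2 CPM (506.8 to 571.1) and 423.9 CPM (399.6 to 449.3). It was at 248.1, 805.3, 340.7 and 429.4 CPM in the TRPM8 nuclei of libraries 1, 3, 5 and 6, and at 313.8, 408.4, 323.7 and 468.6 CPM in their GFRA2 nuclei. The groups overlapped between libraries, their order was not the same in each, and the GFRA2 group led under 5 of 18 alternative settings. A single nucleus of 68171 UMIs held 224 of the 1093 ZNF521 UMIs of the TRPM8 group. Another of 309706 UMIs held 214 of the 1139 in the GFRA2 group. Without library 4 the TRPM8 and GFRA2 groups were at 432.5 and 423.8 CPM. The NTRK3 group followed with 156.5 CPM, at 295 and 238.8 CPM in libraries 3 and 4 but 99.1, 36.1 and 86.6 CPM in libraries 1, 5 and 6. The remaining groups lay between 37 and 92 CPM.

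PRDM8 was scarce, with 54 UMIs in the TRPM8 group (26.6 CPM, 20 to 34.7), 7.37-fold above the other groups together (4.97 to 10.9). Its TRPM8 nuclei were at 7.95, 49.6, 22.5 and 24.7 CPM in libraries 1, 3, 5 and 6. The other 7 groups had between 1.05 and 7.07 CPM, on 2 to 19 UMIs each, and could not be ordered at this depth.

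The TRPM8 group was not uniform. A shallow cluster of 303 nuclei, 299 of them from library 1, had a median of 1443 UMIs, and lower levels of RORA (888.8 CPM), ZNF521 (177.8 CPM) and FOXP2 (163.1 CPM). The other TRPM8 clusters, one mainly from library 3 and one mainly from libraries 5 and 6, had 2332.1 and 4529.5 CPM of RORA and 675.8 and 666.8 CPM of ZNF521. FOXP2 was at 436.9 and 384 CPM in them. RUNX1 differed little, at 307.9 CPM in the shallow cluster against 402.3 and 345.2 CPM. Without the shallow cluster, the TRPM8 group had 3588.1 CPM of RORA, 670.6 CPM of ZNF521, 406.7 CPM of FOXP2 and 33 CPM of PRDM8. The satellite glia markers summed to 1356.1 CPM in the whole TRPM8 group, below 2284.8 CPM in the PVALB group and above the other 6 groups (189.4 to 582.5 CPM); all 5 markers were present as rows, and their part in these levels was not tested.

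**Figure D4:**
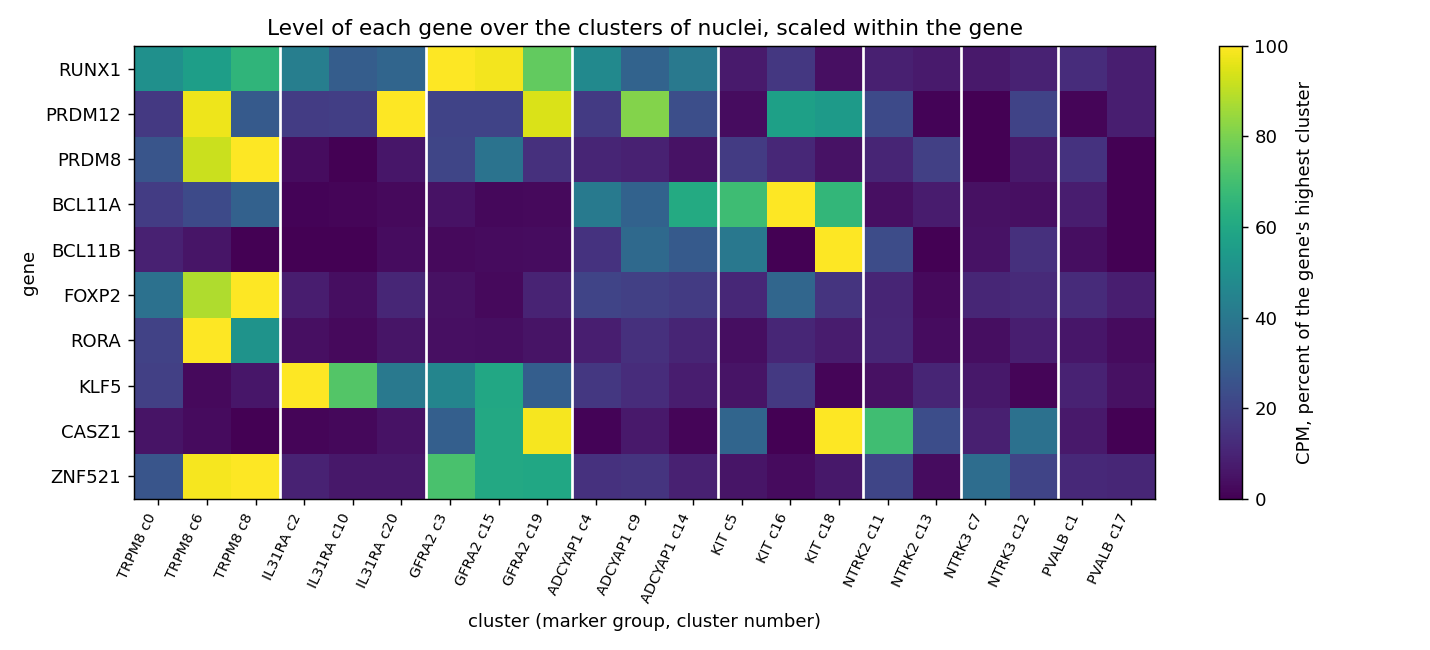
CPM of each gene (rows) in the 21 clusters of nuclei (columns, named by marker group and cluster number), as a percentage of that gene's highest cluster; white lines separate the marker groups. The shallow TRPM8 cluster (c0) is lower than the other TRPM8 clusters for RORA, FOXP2 and ZNF521, and KIT cluster c16 lacks the CASZ1 and BCL11B of the other KIT clusters.

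KLF5 was highest in the IL31RA group at 178.5 CPM (160 to 198.4), 5.47-fold above the other groups together (4.76 to 6.29), and second in the GFRA2 group at 92.3 CPM (81.2 to 104.5). The IL31RA nuclei were at 193.7, 171.7, 75 and 107.2 CPM in libraries 1, 3, 5 and 6 and the GFRA2 nuclei at 81.1, 138.6, 58.2 and 74.9 CPM. The IL31RA group was thus higher within each library, although the ranges overlapped and the GFRA2 group led at Leiden resolution 0.5 (87.7 against 85.3 CPM). All 6 other groups lay between 4.98 and 27.6 CPM. The TRPM8 nuclei of library 1 reached 46.1 CPM of KLF5, against 3.74 to 9.91 CPM in the other libraries, and 299 of those 315 nuclei belonged to the shallow cluster. In the IL31RA group 4 members were scarce: BCL11A was at 3.66 CPM on 7 UMIs, CASZ1 at 4.19 CPM on 8, PRDM8 at 1.05 CPM on 2 and BCL11B at 0.523 CPM on 1.

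BCL11A and BCL11B shared an order of groups, with KIT first and ADCYAP1 second. BCL11A stood at 192.5 CPM in the KIT group (168.4 to 219.1), 102 CPM in the ADCYAP1 group (93.4 to 111.1) and 61.5 CPM in the TRPM8 group (51.2 to 73.3), where a single nucleus of 168280 UMIs held 26 of the 125 UMIs. All other groups were at 17.8 CPM or less. The KIT nuclei were at 222.6, 172.2, 124.2 and 199.3 CPM in libraries 1, 3, 5 and 6. The ADCYAP1 nuclei were at 111.5, 157.5, 320.5, 53.7 and 70.2 CPM in libraries 1, 3, 4, 5 and 6. KIT nuclei were therefore the higher in libraries 1, 3, 5 and 6. Library 4 went the other way: its 10 ADCYAP1 nuclei had the highest single value, and its 5 KIT nuclei, too few to be listed, lay below it. Libraries 5 and 6 had 0.462-fold the BCL11A of libraries 1 and 3 in the ADCYAP1 group (0.382 to 0.557), the opposite of PRDM12 in the same nuclei.

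BCL11B stood at 37 CPM in the KIT group (26.9 to 49.7) and 18.5 CPM in the ADCYAP1 group (15 to 22.6). Its KIT nuclei were at 28.7, 16, 49.7 and 58 CPM in libraries 1, 3, 5 and 6, and its ADCYAP1 nuclei at 11.8, 16.3, 34, 14.6 and 21.5 CPM in libraries 1, 3, 4, 5 and 6. The ranges overlapped. The NTRK3 group followed at 7.48 CPM, and the TRPM8, IL31RA and GFRA2 groups held 6, 1 and 5 UMIs. BCL11B was thus a member of the list that 3 of the 4 C-fibre marker groups hardly carried.

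CASZ1 was high in a C-fibre marker group, in the KIT group and in large-fibre ones. It stood at 123.2 CPM in the GFRA2 group (110.3 to 137.2), 99.2 CPM in the KIT group (82.1 to 118.8), 69 CPM in the NTRK2 group (51.4 to 90.8) and 54.3 CPM in the NTRK3 group (44.6 to 65.5). The TRPM8, IL31RA, ADCYAP1 and PVALB groups had 4.43, 4.19, 8.37 and 10.2 CPM. Neighbours among the first 4 had overlapping intervals, and a step of 5.32-fold separated them from the rest. A single nucleus of 107208 UMIs held 34 of the 118 CASZ1 UMIs of the KIT group. The order of the KIT and NTRK2 groups depends on the processing and on their libraries. As a mean of CPM over nuclei they were at 64.3 and 71.6 CPM, and after thinning to 1000 UMIs at 48 and 53.7 CPM. Leaving out the deepest nuclei kept the KIT group higher, at 86.7 against 69 CPM. Of the NTRK2 nuclei, 150 were from library 3. There they were at 73.2 CPM (54.4 to 96.6) and the KIT nuclei at 40 CPM (19.2 to 73.7). CASZ1 was at 36.6, 101.2, 170.1 and 153.6 CPM in the GFRA2 nuclei of libraries 1, 3, 5 and 6, and at 57.4, 40, 140.7 and 123.6 CPM in their KIT nuclei. In NTRK3 nuclei it was listed at 0 in library 1 (10 nuclei) and stood at 15.7, 45.9, 108.4 and 61.1 CPM in libraries 3, 4, 5 and 6. Like PRDM12, it was higher in libraries 5 and 6 than in 1 and 3, by 2.17-fold in the GFRA2 (1.65 to 2.89) and 2.76-fold in the KIT group (1.62 to 4.94).

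The KIT group joined clusters that differed in these genes. Of its 3 clusters, 2 carried TRPM8 as well as KIT and held BCL11B at 24.2 and 60.3 CPM and CASZ1 at 54.5 and 167.6 CPM. The remaining cluster, of 33 nuclei, carried 1335.5 CPM of NTRK2 with 764.8 CPM of KIT. It had no UMI of BCL11B or CASZ1 among 262832, which allows a level of up to 11.4 CPM for each, and it had 258.7 CPM of BCL11A and 98.9 CPM of RUNX1. BCL11A was thus high in all 3 KIT clusters (171 to 258.7 CPM), whereas BCL11B and CASZ1 were not.

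Depth differs between nuclei, so detection was compared after thinning each nucleus to 1000 UMIs and leaving out shallower ones, 52 of 516 in the TRPM8 group and between 1 and 29 in the other groups. At that depth RORA was seen in 57.3% of TRPM8 nuclei (exact binomial interval 52.7 to 61.9%) and in 17.6 to 32.3% of nuclei of the other groups. Before thinning these shares were 68.8% and 48.3 to 70.2%, so the unthinned shares do not set the TRPM8 group apart. RUNX1 was seen in 36.9% of GFRA2 nuclei (30.4 to 43.8%) and in 2.67 to 8.82% of nuclei of the KIT and large-fibre marker groups. ZNF521 was seen in 29% of GFRA2, 26.7% of TRPM8 and 20.7% of NTRK3 nuclei, and in 3.66 to 8.33% elsewhere. PRDM12 was seen in none of 150 NTRK3 and none of 204 PVALB nuclei, which allows shares of nuclei with a UMI of up to 2% and 1.47%. PRDM8 and BCL11B were seen in at most 1.29% and 2.4% of nuclei of any group, too few at this depth to set groups apart. RNA free in the suspension can give UMIs in nuclei that do not express a gene, and the shares in the lowest groups are the level to read the others against.

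**Figure D5:**
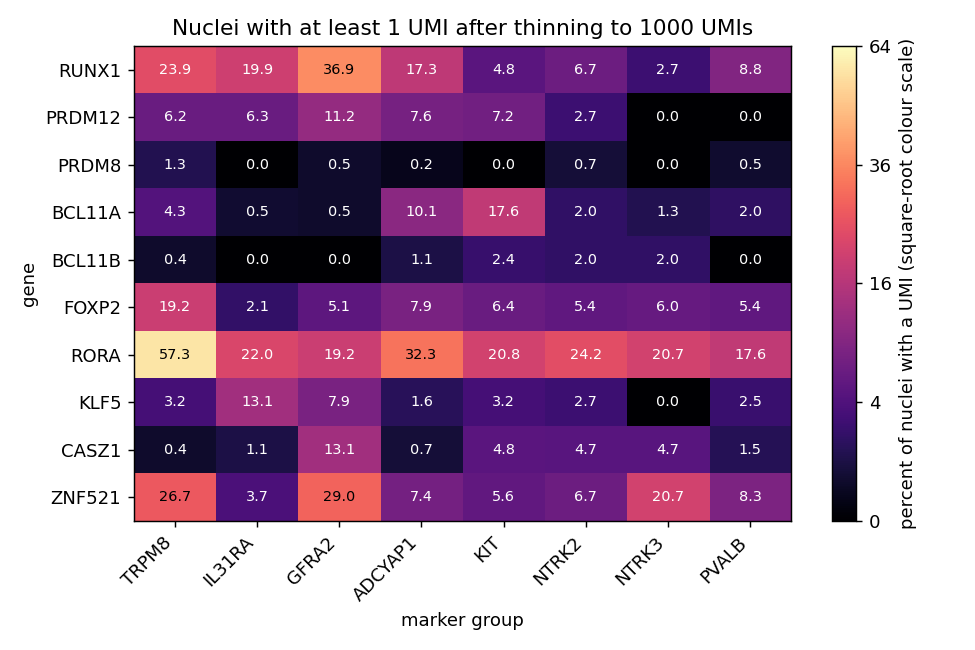
Percent of nuclei with at least 1 UMI of each gene (rows) in each marker group (columns) after every nucleus was thinned to 1000 UMIs, with the percentage written in each cell and a square-root colour scale. RORA in TRPM8 nuclei (57.3%) and RUNX1 in GFRA2 nuclei (36.9%) are the highest shares of their rows.

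Among nuclei with at least 5000 UMIs the genes were seen together in combinations that differed by group. Whether any pair was seen together more often than the share of each gene alone gives was not tested. Of 95 TRPM8 nuclei, 86.3% had both RORA and ZNF521 and 73.7% both RORA and FOXP2. Alone, RORA was seen in 94.7%, ZNF521 in 91.6% and FOXP2 in 76.8% of them. Of 168 GFRA2 nuclei, 72.6% had both RUNX1 and ZNF521, 60.7% both RUNX1 and CASZ1 and 47.6% both RUNX1 and KLF5. Alone, RUNX1 was seen in 91.7%, ZNF521 in 80.4%, CASZ1 in 64.3% and KLF5 in 50% of them. Of 137 IL31RA nuclei, 58.4% had both RUNX1 and KLF5 but 2.19% both RUNX1 and BCL11A. Alone, RUNX1 was seen in 78.1%, KLF5 in 73% and BCL11A in 2.92% of them. Of 299 ADCYAP1 nuclei, 84.3% had RUNX1, 56.9% BCL11A and 48.5% both. Of 73 KIT nuclei, 84.9% had BCL11A, 23.3% RUNX1 and 20.5% both. These shares rise with depth, which was not made equal here, and they describe the same nuclei that formed the groups.

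Likeness of pattern was measured as Pearson's r of log2(CPM + 10) over 30 combinations of marker group and library, with 9352 genes of at least 200 UMIs as candidates. PRDM8 and BCL11B themselves had 109 and 173 UMIs, with at most 5 UMIs in 25 and 22 of the 30 combinations, so their r rest on few UMIs. The 30 points share libraries, depth and the clustering, so r is a description. Among the members, FOXP2 and RORA were closest (r = 0.893), then BCL11A and BCL11B (0.836) and PRDM8 and RORA (0.763). BCL11B ran most against KLF5 (-0.429) and RUNX1 (-0.428).

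The 3 genes most like each member over the whole table were these. RUNX1 was closest to TES (0.802), LDB2 (0.802) and KCNG2 (0.791). LDB2, a cofactor that binds LIM domain proteins, stood at 1319.6 CPM in the TRPM8 and 1247.2 CPM in the GFRA2 group against 82.4 to 196.4 CPM in the KIT and large-fibre marker groups. PRDM12 was closest to PRKX (0.915), MAPT (0.896) and CELF5 (0.888), and MAPT encodes the microtubule protein tau. MAPT was at 709 CPM in the TRPM8 and 709.4 CPM in the NTRK2 group, where PRDM12 was at 101.4 and 17.6 CPM. The r takes in differences between libraries as well as groups, so a high r need not mean a shared order of groups. PRDM8 was closest to AMOTL1 (0.821), GRK3 (0.797) and RORA.

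BCL11A was closest to SYN3 (0.906), NPFFR2 (0.887) and HTR1E (0.883), a synaptic vesicle gene and genes of a neuropeptide receptor and a serotonin receptor. SYN3 stood at 2161.5 CPM in the KIT and 790.8 CPM in the ADCYAP1 group and at 229 CPM or less in the others. BCL11B was also closest to SYN3 (0.875), then DGKK (0.872) and PLCZ1 (0.872). FOXP2 was closest to RORA, PDE3B (0.815) and PALMD (0.81), and RORA to FOXP2, IGSF21 (0.871) and COLQ (0.861). COLQ, the collagen tail of acetylcholinesterase, had 114.7 CPM in the TRPM8 group and at most 18.9 CPM elsewhere.

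KLF5 was closest to ASS1 (0.912), SLC66A3 (0.864) and PGAP1 (0.839). ASS1, argininosuccinate synthase, had 199.9 CPM in the IL31RA and 134.7 CPM in the GFRA2 group. CASZ1 was closest to BTBD11 (0.91), ASAP1 (0.86) and PIEZO2 (0.857). PIEZO2, the main channel of touch, had 2016.1 CPM in the GFRA2, 1315.9 CPM in the NTRK3, 905.4 CPM in the KIT and 897.6 CPM in the NTRK2 group, the 4 groups in which CASZ1 was also highest, and 46.1 to 318.6 CPM in the others. ZNF521 was closest to NTM (0.83), GFRA2 (0.811) and GLCCI1 (0.761), of which GFRA2 is itself a grouping marker.

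A set of 4 lists of related genes stood beside the members, with the same 2-fold mark and the same background of 6.47% higher and 9.42% lower. Partners of the members (cofactors and chromatin proteins such as CBFB, the DNA-binding partner of RUNX proteins) were nearly even: of 25 with at least 50 UMIs, 1 was higher and 0 lower, and the median log2 ratio was 0.31. CHD3, a chromatin remodeller, was at 177.1 against 82.2 CPM (2.16-fold, 1.93 to 2.42). EBF1, an early B-cell factor, was 1.76-fold and the corepressor CTBP2 1.75-fold higher. At the other end, CBFB was at 235.4 against 305.5 CPM, and the corepressor TLE4 and EBF3 had ratios of 0.661 and 0.538.

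Family relatives of the members did not follow them. Of 20, 1 was higher and 2 lower, and the median log2 ratio was 0.05. RUNX3, the RUNX factor of proprioceptors in mice, was 20.7-fold lower in the C-fibre marker groups, on 10 UMIs against 76. It stood at 25.4 CPM in the NTRK3 and 15.2 CPM in the PVALB group and at 1.57 CPM or less in the other 6, so that it and RUNX1 held opposite sides. ZNF423, the closest relative of ZNF521, was 8.69-fold lower, at 389.8 CPM in the NTRK3 group and at 54.2 CPM or less elsewhere. KLF3 had a ratio of 0.575. KLF7, a Krüppel-like factor, was at 382.5 against 174.5 CPM (2.19-fold, 2.03 to 2.37), while KLF6 (1.58-fold) and RORB (1.51-fold, 0.977 to 2.42) stayed under 2-fold.

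Of 27 other sensory neuron transcription factors, 6 were higher and 6 lower, with a median log2 ratio of -0.2. On the C-fibre side stood POU4F1, a pan-sensory POU factor, on 50 UMIs against 2 (9.18-fold, 2.41 to 77.9), TSHZ2 (8.16-fold, 4.79 to 15.1) and DRGX (2.69-fold, 2.35 to 3.1). The large-fibre side had ONECUT1 (11.4-fold lower in the C-fibre marker groups), SHOX2 (9.75-fold) and ESRRG (5.68-fold). ONECUT1 had 102.7 CPM and ESRRG 445.6 CPM in the NTRK3 group, and SHOX2 48.2 CPM in the PVALB group.

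The last list held sensory genes taken to be under Runx1 control, in either direction, in the mouse. Of 16 with at least 50 UMIs, 12 were higher and 0 lower, with a median log2 ratio of 2.02. The list includes 3 of the grouping markers, TRPM8, GFRA2 and ADCYAP1; of the other 13, 9 were higher. TRPV1, the heat and capsaicin channel gene, was 16-fold higher (8.6 to 33.5), the sodium channel gene SCN11A 9.7-fold (8.34 to 11.3) and the neuropeptide gene GAL 7.8-fold (5.72 to 10.9). At the low end PLXNC1 had a ratio of 1.05 (0.962 to 1.14) and GFRA1 of 1 (0.909 to 1.1). These genes did not all lie where RUNX1 was highest. SCN11A was at 1025.8 CPM in the IL31RA group against 402 CPM in the GFRA2 group and 88.6 CPM in the TRPM8 group, and TRPV1 was at 71.4 CPM in the TRPM8 group against 8.93 CPM in the GFRA2 group. EHMT1, BHLHE22, MTA1, SOX4 and MRGPRD, also on these lists, were not analysed here.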

How the data were processed

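The authors deposited 1 table of raw UMI counts, 30477 genes by 2189 nuclei, with no normalization. Per the submitters' processing notes the tools were Cell Ranger 6.0.1 and Seurat, and the build Sscrofa11.1, with no step given for any. Of the rows, 14012 carried Ensembl identifiers (773 were given a symbol) and 6124 held no count. No nucleus was removed and no doublet caller was run. Depth per library ran from 760816 to 4910023 UMIs.

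Counts scaled to 10000 per nucleus were log-transformed and clustered in scanpy 1.11.5 (2000 variable genes, 1987 after leaving out members and listed transcription factors; 30 components, 15 neighbours, Leiden resolution 1.0). A cluster joined the marker with the largest log2 ratio (10 CPM added) over the same libraries, from 1 upwards. UMIs were summed per group as CPM with exact Poisson intervals. Ratios had exact conditional binomial intervals, at least 50 UMIs over both sides, and 95% confidence. Within libraries at least 10 nuclei a side were required. Called means past 2-fold. Where a side had no UMI, 3 counts stood in for it. With 1 pooled sample, no p-value was computed.

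The members and lists were chosen with earlier results of these data known. By rule, the text names all members, the 3 genes most like each, and the 3 highest and 3 lowest ratios per list (1 of these is not reported here); LDB2, SYN3, COLQ, ASS1 and PIEZO2 were picked from these for levels after their values were seen. Poisson counts were simulated for the C-fibre over large-fibre comparison (12952 genes, 199 changed). Of the intervals, 95.8% held the true ratio. Of genes raised 4-fold 99% were called, of those lowered 4-fold 100%, and of unchanged genes 0.259%. The simulated counts had no variation between nuclei, clusters or libraries. They check the calculation alone and do not show how well the intervals hold in the real counts. Alternatives covered clustering, grouping, scaling, depth and libraries.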

Additional observations from a re-analysis of the deposited data

Results flagged for a closer look

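In 60 sets of 4 or 5 libraries (1 gene in 1 marker group), 7 had a library far from the rest by Dixon's criterion. Chance gives about 1 in 20, and nothing ties libraries to animals. RUNX1 in GFRA2 nuclei was lowest in library 5, at 343.1 CPM against 569.2 to 605.2 CPM in the others. FOXP2 was lowest in the ADCYAP1 nuclei of library 4 (29.1 CPM on 6 UMIs in 10 nuclei, others 76.2 to 88.2 CPM) and in the KIT nuclei of library 5 (24.8 CPM on 3 UMIs, others 68.1 to 71.8 CPM). KLF5 in TRPM8 nuclei was highest in library 1, at 46.1 CPM against 3.74 to 9.91 CPM. CASZ1 in ADCYAP1 nuclei was highest in library 5, at 25.8 CPM against 0 to 6.58 CPM. BCL11A in GFRA2 nuclei was highest in library 1, at 23.5 CPM on 9 UMIs against 5.62 to 7.46 CPM. BCL11B in IL31RA nuclei was at 4.17 CPM in library 5 on 1 UMI, and listed at 0 in the other 3 libraries.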

How the results depend on the processing

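The number of members at least 2-fold higher on the C-fibre side was 8, and 6 to 9 over 18 alternatives. The number at least 2-fold lower was 0 in all but one, and 1 after thinning to 1000 UMIs, where BCL11B had a log2 ratio of -1.10. BCL11B was then seen in at most 6 nuclei of any group, and the cause of the turn was not tested. The other 9 genes kept their direction in all 18. Leaving out 1 library at a time gave 6 to 8 members higher and 0 lower. The log2 ratios ran from 2.05 to 2.66 for RUNX1, 2.07 to 3.38 for PRDM12, 1.05 to 2.43 for BCL11A, 1.01 to 1.76 for RORA, 1.41 to 2.57 for KLF5, 0.71 to 1.52 for ZNF521 and -0.73 to -0.05 for CASZ1. The leading group was the same in all 18 for RUNX1, PRDM8, BCL11A, BCL11B, FOXP2, RORA and CASZ1, in 17 for KLF5, 13 for ZNF521 (GFRA2 in the other 5) and 6 for PRDM12. Grouping nuclei directly by marker UMIs left 1059 in no group and put 37.3% of all nuclei in the same group as before. Leaving out the shallow TRPM8 cluster, or clusters with a marker score under 2, was chosen after seeing the data. No paired analysis was possible because nuclei carry no pig number. Pairing by library instead, as the mean of within-library ratios, gave 8 members higher and 0 lower. Scarce genes (PRDM8, BCL11B) limit what this depth can order.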

Other observations

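Genes of the mouse Runx1 list were divided among the marker groups in other ways than RUNX1 itself; these were chosen after their values were seen. LPAR3, a lysophosphatidic acid receptor gene, stood at 195.4 CPM in the GFRA2 group and at 29.5 CPM or less in the others. TAC1, the substance P gene, stood at 4128.2 CPM in the IL31RA and 2554.5 CPM in the ADCYAP1 group but at 249.4 CPM in the GFRA2 group, where RUNX1 was highest. TRPA1, the irritant channel gene, stood at 182.9 CPM in the ADCYAP1 group and at 78.3 CPM or less in the others. Among other sensory neuron transcription factors, DRGX was highest in the KIT group (295.9 CPM), followed by the GFRA2 (203.2 CPM) and TRPM8 (175.3 CPM) groups. No test was possible with 1 pooled sample.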
